A study of Rattus norvegicus with 8 samples.

Results

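The nervous system in the wall of the rat small intestine was followed through 32 genes of enteric neurons, enteric glia and interstitial cells of Cajal. The genes were listed by symbol for their known roles, and genes of neuropeptides and transmitters were left out. They were chosen with earlier results of these data known, so comparisons of their counts with all loci are descriptions only. Of the 32, 31 were matched to 1 locus each among the 52753 loci of the expression table, and 30 of these had enough fragments to be tested. Slc18a3, the vesicular acetylcholine transporter gene, was not matched and is not analysed here. Th, the tyrosine hydroxylase gene of catecholamine synthesis, was matched but had 0 to 8 fragments per library and was not tested.

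The data are messenger RNA sequencing of the entire small intestine, muscle wall included, from Sprague Dawley rats at postnatal day 21. There were 4 libraries from rats with cystic fibrosis (CF) and 4 from wild-type (WT) rats, alike in strain, age and tissue. The labels name no CF allele, sex or litter and do not say whether each library is 1 animal. The p-values therefore measure the spread between these libraries, which may be technical. Libraries carry the numbers 0 to 3 within each group, used here as names, and the labels do not say whether these pair libraries. Depth was 15255364 to 20890031 fragments per library. On the first principal component of all tested loci (31.3% of the variance) CF library 0 lay at −56.9 and CF library 3 at −43.6, apart from the other 6 libraries at 4.1 to 28.6.

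The enteric nervous system arises from neural crest cells that enter the gut under the control of the receptor tyrosine kinase RET, which binds GDNF through the co-receptor GFRA1, and of the endothelin receptor EDNRB. These cells form the myenteric plexus between the muscle layers and the submucosal plexus under the mucosa, where neurons are accompanied by glia that express SOX10 and S100B. Interstitial cells of Cajal are not neural: they are mesenchymal pacemaker cells of the muscle that need the receptor KIT and carry the chloride channel ANO1.

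What these genes share beyond their roles was looked at in the 250 bases upstream of the transcription start, taken from RefSeq promoters (build GRCr8), which matched 24 of the 32 symbols. The palindrome TGACGTCA, the cAMP response element, stood in 3 of these 24 promoters (12.5%), those of Th, Slc18a2 and Syn1, against 1.59% of all 33469 promoters of the table. The 3 windows are shown because no other of the 24 matched promoters held this element. Each window is written 5′ to 3′ on the strand of the gene, and capitals mark the element.
Th, chr1:207508254-207508313, minus strand: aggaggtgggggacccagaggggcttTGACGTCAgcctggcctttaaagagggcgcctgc
Slc18a2, chr1:268399943-268400002, plus strand: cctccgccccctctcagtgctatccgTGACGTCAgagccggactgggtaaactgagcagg
Syn1, chrX:3725529-3725588, plus strand: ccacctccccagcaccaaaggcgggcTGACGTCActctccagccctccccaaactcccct
The element began 69 bases upstream of the start in Th, 52 in Slc18a2 and 190 in Syn1. The GC box GGGCGG was in 15 of the 24 promoters (62.5%, against 30.47% of all), and TATAAA in 3, those of Uchl1, Prph and Cdh19 (12.5%, against 12.93%). The E-boxes CAGCTG and CATCTG were in 5 (20.8%, against 11.97%) and 3 (12.5%, against 13.96%). The left and right parts of the RE1 element, through which the repressor REST silences neuronal genes outside neurons, were in few: TTCAGCACC in Elavl4 alone (4.2%, against 0.3%) and GGACAGC in Ednrb and Etv1 (8.3%, against 5.3%). ACAAAG, a SOX site, was in 0 (against 16.3%), and GGAAGT, an ETS site, was in Gfap alone (4.2%, against 19.22%). All 9 motifs were searched on both strands. A match here is a description of letters and not of binding.

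For 3 of the 4 members with the lowest p-values between CF and WT a promoter was matched, and these are shown for reference with the GC box, the E-box CAGCTG and GGACAGC in capitals where present. The fourth, Nefm, was not matched.
S100b, chr20:12381082-12381331, minus strand: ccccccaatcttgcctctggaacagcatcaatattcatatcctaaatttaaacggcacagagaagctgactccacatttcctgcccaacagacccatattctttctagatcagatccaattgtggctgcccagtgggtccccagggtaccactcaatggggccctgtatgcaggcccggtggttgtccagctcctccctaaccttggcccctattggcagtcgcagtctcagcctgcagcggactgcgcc
Syt1, chr7:46244214-46244463, minus strand: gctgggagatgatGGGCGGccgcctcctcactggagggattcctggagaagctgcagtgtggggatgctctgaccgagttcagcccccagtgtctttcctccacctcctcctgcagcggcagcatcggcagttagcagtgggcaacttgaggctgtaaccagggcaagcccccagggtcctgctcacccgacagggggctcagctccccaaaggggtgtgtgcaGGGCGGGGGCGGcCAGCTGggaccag
Etv1, chr6:61317179-61317428, plus strand: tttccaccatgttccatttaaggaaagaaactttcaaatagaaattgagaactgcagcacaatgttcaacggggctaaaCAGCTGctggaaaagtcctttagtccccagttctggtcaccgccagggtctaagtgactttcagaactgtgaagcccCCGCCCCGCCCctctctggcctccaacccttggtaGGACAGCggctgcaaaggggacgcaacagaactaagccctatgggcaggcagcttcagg
The stretch in capitals that begins 94 bases upstream in Etv1 is a pair of overlapping GC boxes read from the opposite strand. S100b held none of the 3 motifs.

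Per transcript length, the members were mostly low in this whole-organ RNA. Their levels in FPKM (fragments per kilobase of transcript, scaled for depth) had a median of 2.775 over the 30 tested members, against 5.358 over all 16941 tested loci, and 6 of the 30 lay above that median. Those 6 were Erbb3 at 35.5 FPKM, Ednrb at 16.2, Uchl1 at 13.3, Prph at 11.1, Stmn2 at 6.48 and Snap25 at 5.84, as means over 8 libraries. At the other end stood Elavl3 at 0.293, Dbh at 0.263 and Th at 0.0770 FPKM. Neighbours in this order mostly did not differ beyond their spread, as the plot of FPKM by library shows.

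**Figure D1:**
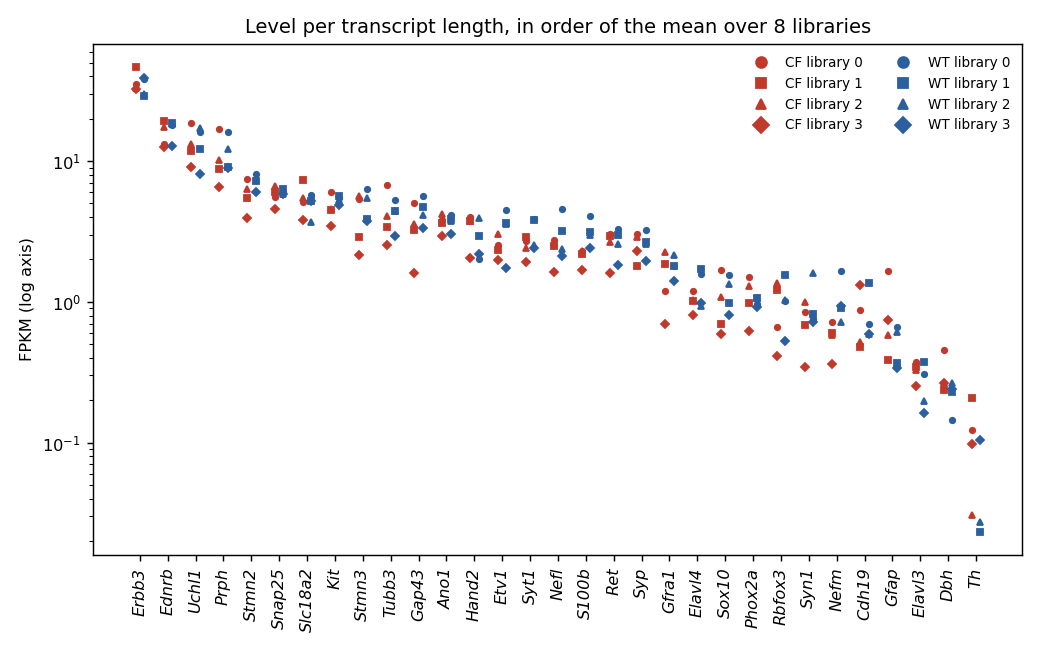
FPKM (log axis) of the 31 matched genes in each of the 8 libraries, in order of the mean over all libraries; Th is listed at 0 in WT library 0, which is not drawn. The order runs from Erbb3 at 35.5 to Th at 0.0770 FPKM, and the points of CF (red) and WT (blue) overlap for most genes.

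Transcripts of the glial genes Sox10 and Erbb3 were found in every library. Sox10, the transcription factor that defines enteric glia, was at 4.14 ± 0.961 CPM (CPM, fragments scaled to a common library size; mean ± SD, n = 4, here and below) in CF and 4.73 ± 0.986 CPM in WT. Erbb3, the neuregulin receptor that glia need, was at 271 ± 51.7 CPM in CF and 239 ± 28.1 in WT, and gut epithelium is known to express it too. Its values were 221, 332, 235 and 295 CPM in CF libraries 0 to 3, and 239, 216, 222 and 279 CPM in WT libraries 0 to 3. The summed level of 9 epithelial genes was 7683, 16490, 12600 and 13080 CPM in the same CF libraries and 10990, 9680, 9169 and 13470 CPM in the WT ones, so that CF library 1 was highest in both and WT library 3 was the highest WT library in both. In the edgeR test described below, all 9 epithelial genes had higher fitted levels in CF, while 50.8% of all loci were lower. Of the 9, 2 were higher at an unadjusted p under 0.05, against 7.94% of all loci, and 0 reached an adjusted p of 0.05. The part of epithelium in the Erbb3 values was not tested. The spans of Sox10, Gap43, Syn1, Slc18a2, Phox2a and Elavl3 also hold other named loci, and those of Erbb3 and Rbfox3 hold loci without a name, so fragments may be divided between them and these levels are less certain.

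Between CF and WT, none of the 30 tested members passed the test. Over all 16941 loci tested with edgeR's quasi-likelihood method, 28 loci (0.165%) passed a Benjamini-Hochberg adjusted p of 0.05, and 0 of them were members. At an unadjusted p under 0.05, 4 members (Nefm, S100b, Syt1 and Etv1) were lower in CF, out of 30, while 7.21% of all loci were. In the other direction 0 members had an unadjusted p under 0.05, against 7.94% of all loci. DESeq2 called 1 member, Nefm, in a fit that called 3.1% of the loci it gave an adjusted p, and limma-voom and limma on FPKM called 0. Fitted levels were lower in CF for 21 of 30 members, against 50.8% of all loci, and the median log2 ratio (the log2 fold change of CF over WT) was −0.13, against −0.00 over all loci. Among the lower ones Uchl1, Syp, Ano1 and Snap25 had ratios of only −0.02 to −0.00. Over the alternative settings 17 to 23 of the 30 were lower, and the median ran from −0.22 to −0.07. In bulk RNA, fewer cells of a type and less RNA per cell cannot be told apart.

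**Figure D2:**
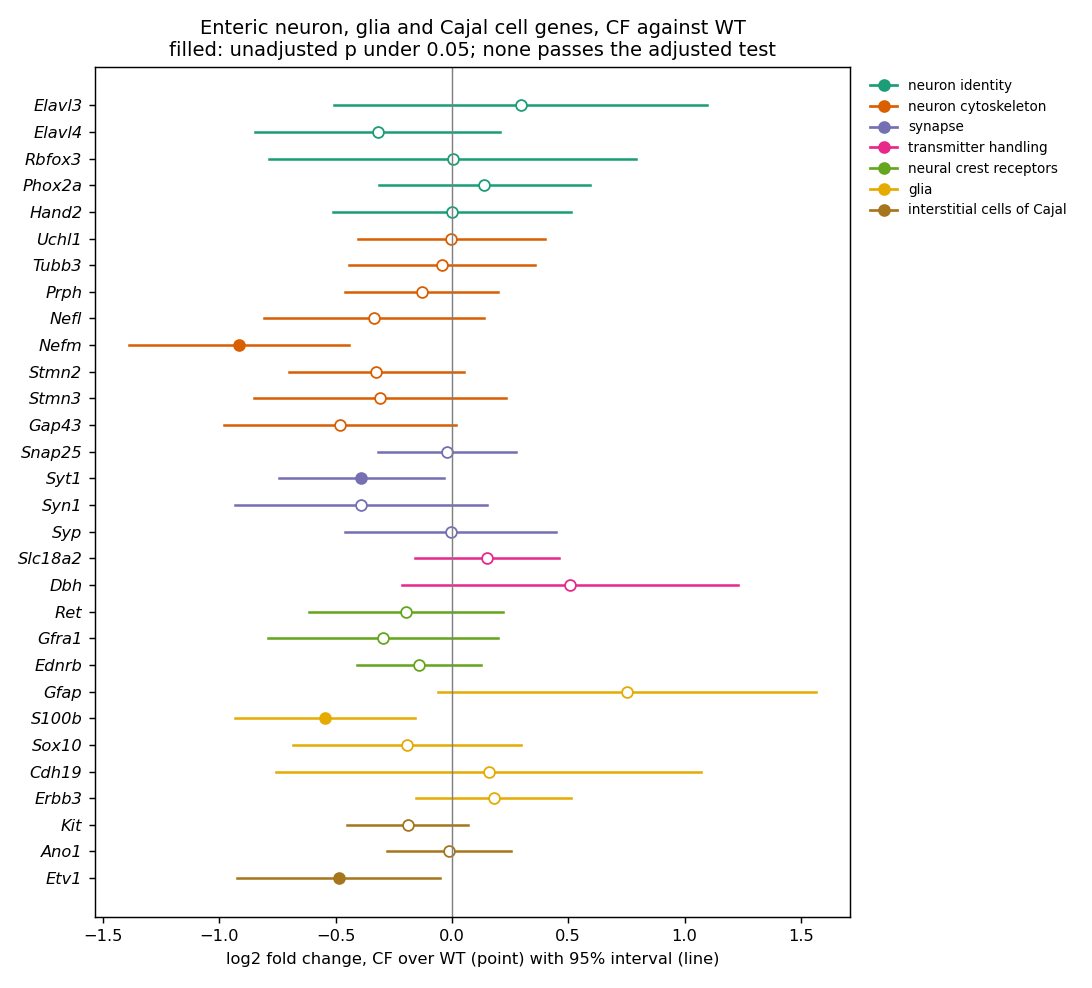
Log2 fold change of CF over WT (points) with its 95% interval (lines) for the 30 tested members, coloured by role; filled points have an unadjusted p under 0.05. The filled points are Nefm, Syt1, S100b and Etv1, all left of 0, and the interval of Gfap reaches furthest to the right, to 1.56.

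The genes of the neuron cytoskeleton group all had fitted levels at or below those of WT. These 8 genes encode neurofilaments, tubulin, stathmins and other proteins of axons, and their log2 ratios ran from −0.91 to −0.00 with a median of −0.32. Over the alternative settings 6 to 8 of the 8 were lower and the median stayed between −0.41 and −0.17. Uchl1, which turned to 0.00 with DESeq2's size factors, had the value nearest to 0. Nefm, the medium neurofilament subunit (chromosome 15, 44855310 to 44860604, Rnor_6.0), was at 2.80, 2.76, 2.93 and 2.09 CPM in CF libraries 0 to 3. In WT it was at 6.63, 4.77, 4.005 and 4.57 CPM. Every CF library lay below every WT library, a pattern that 3.91% of all loci showed in this direction and 4.86% in the other. The log2 ratio was −0.91 (SE 0.21, 95% interval −1.39 to −0.44), a level 1.88-fold lower in CF, with an adjusted p of 0.106. The libraries held 42 to 109 fragments of it. DESeq2 gave an adjusted p of 0.0172, and over all alternatives the adjusted p ran from 0.0172 to 0.803. On log2(FPKM + 1), a scale that understates the change of low genes, the log2 ratio was −0.38.

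Nefl, the light neurofilament subunit, lies in the same region of chromosome 15 (44799334 to 44804574) and differed less. It was at 9.79, 8.35, 9.95 and 6.93 CPM in CF and at 15.3, 11.7, 9.45 and 7.71 in WT, with overlapping groups. Its log2 ratio was −0.33 (SE 0.21, adjusted p = 0.490). Gap43, the growth cone protein, was at 8.25, 6.94, 8.46 and 4.49 CPM in CF against 9.43, 11.8, 10.9 and 7.10 CPM in WT, a log2 ratio of −0.48 (SE 0.23, adjusted p = 0.344). Stmn2, a stathmin that destabilises microtubules in growing axons, averaged 11.2 ± 2.56 CPM in CF against 14.0 ± 1.38 in WT. Its close relative Stmn3 averaged 2.83 ± 0.751 CPM in CF against 3.50 ± 0.672 in WT. In all of these 4 genes CF library 3 was the lowest CF library and WT library 3 the lowest WT library.

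Uchl1, Tubb3 and Prph, general markers of the neuronal cell body and axon, are counted among the 8 genes of the neuron cytoskeleton group. They had the smallest differences of that group. Uchl1, the ubiquitin hydrolase known as PGP9.5 and the neuronal member with the highest FPKM, was at 17.1, 14.4, 12.5 and 13.6 CPM in CF and 16.2, 15.4, 16.5 and 9.49 in WT. Its log2 ratio was −0.00, with a 95% interval of −0.40 to 0.40. Tubb3, the neuronal beta-tubulin, averaged 9.46 ± 1.83 CPM in CF against 9.73 ± 1.72 in WT, with an interval of −0.44 to 0.36. Prph, the peripheral neuron filament peripherin, averaged 19.0 ± 2.59 CPM in CF against 20.8 ± 3.58 in WT, with an interval of −0.46 to 0.20. For these 3 genes a loss of the size seen for Nefm lies outside the interval.

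**Figure D3:**
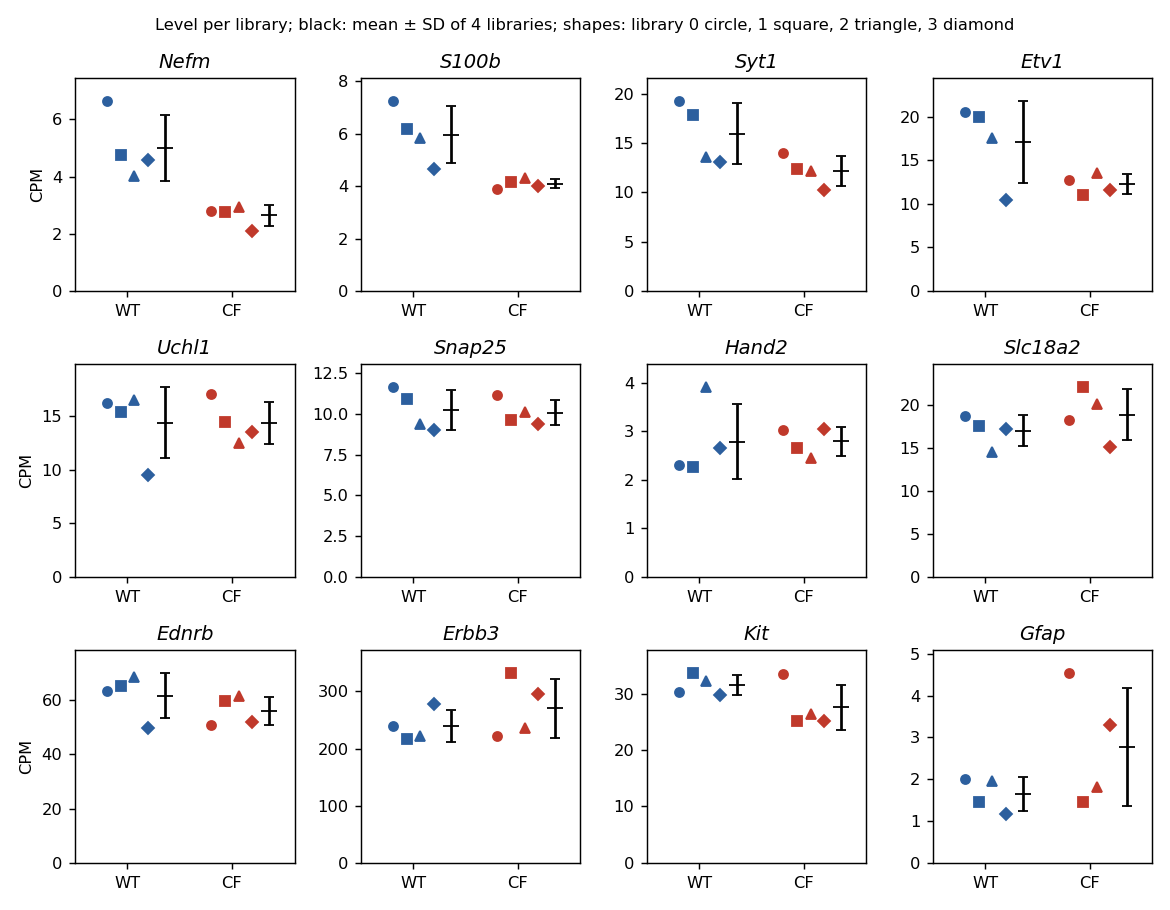
CPM in each library for 12 members, with WT in blue, CF in red and the mean ± SD of 4 libraries in black; all axes start at 0. The groups are separate for Nefm and S100b and overlap in the other panels, and in Gfap CF libraries 0 and 3 stand above the other 6.

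Among the 4 synaptic genes, Syt1 had a lower mean in CF while Snap25 and Syp were at nearly equal levels, and over the alternatives 2 to 4 of the 4 were lower. Syt1, the calcium sensor of vesicle release (chromosome 7, 50084060 to 50638798), was at 14.0, 12.4, 12.1 and 10.2 CPM in CF and 19.2, 17.9, 13.6 and 13.1 in WT. Only CF library 0 reached into the WT range. Its log2 ratio was −0.39 (SE 0.16, 95% interval −0.74 to −0.03), with an adjusted p of 0.295 and an unadjusted p under 0.05 in 8 of 16 alternatives. Snap25, a SNARE protein of the release machinery, was at 11.1, 9.65, 10.1 and 9.38 CPM in CF and 11.6, 10.9, 9.36 and 9.01 in WT, with an interval of −0.32 to 0.28. Syp, the vesicle protein synaptophysin, was at 3.81 ± 0.735 CPM in CF and 3.83 ± 0.574 in WT. Syn1, which tethers vesicles, averaged 2.50 ± 0.573 CPM in CF against 3.26 ± 0.715 in WT, a log2 ratio of −0.39 (SE 0.24, adjusted p = 0.480).

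Enteroendocrine cells of the epithelium also express several of these release genes. Of 10 enteroendocrine markers 9 were matched and tested, 5 with lower and 4 with higher levels in CF, with 0 past the adjusted test and 0 at an unadjusted p under 0.05. Their summed level was 204 to 274 CPM in CF and 190 to 282 in WT, and none of the 9 was at 0.

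Genes of neuronal identity went in both directions and were counted at low depth. Of 5, 4 had a fitted level at or above WT, and the median log2 ratio was 0.00; over the alternatives 1 to 3 of the 5 were lower. Hand2, a transcription factor of enteric neurons and the most abundant of the 5 per length, was at 3.04, 2.65, 2.45 and 3.04 CPM in CF and 2.31, 2.26, 3.91 and 2.66 in WT. Phox2a, a homeodomain factor of autonomic neurons, averaged 3.10 ± 0.578 CPM in CF against 2.82 ± 0.293 in WT. Elavl4, which encodes the neuronal RNA-binding protein HuD, averaged 3.92 ± 0.977 CPM in CF against 4.90 ± 1.18 in WT (log2 ratio −0.32, SE 0.24), and its relative Elavl3 (HuC) had 6 to 21 fragments per library (log2 ratio 0.30, 95% interval −0.51 to 1.10). Rbfox3, the antigen NeuN, varied within the CF group, with 1.93, 4.46, 4.58 and 1.90 CPM in CF libraries 0 to 3 against 3.47, 4.26, 3.03 and 1.98 CPM in WT. Its log2 ratio had an interval of −0.79 to 0.79. Its low CF libraries were the 2 that stood apart on the first principal component.

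Genes that load or make monoamine transmitters had slightly higher levels in CF. Slc18a2, the vesicular monoamine transporter, was at 18.3, 22.1, 20.1 and 15.2 CPM in CF and 18.8, 17.6, 14.6 and 17.3 in WT (log2 ratio 0.15, SE 0.14, adjusted p = 0.652). Dbh, the enzyme that turns dopamine into noradrenaline in sympathetic nerves, had 7 to 25 fragments per library and a log2 ratio of 0.51 (SE 0.33, adjusted p = 0.492). Th had 4, 8, 1 and 5 fragments in CF libraries 0 to 3 and 0, 1, 1 and 3 in WT, counts too low to compare. Slc18a2 is also expressed by mast cells. Of 10 mast cell markers 9 were matched and 7 tested, 6 lower and 1 higher in CF, while 50.8% of all loci were lower. Of the 7, 0 passed the test and 1, the higher Cma1, had an unadjusted p under 0.05, against 7.94% of all loci. The 9 summed to 81.8 to 228 CPM in CF and 135 to 310 in WT. None of the 9 was at 0 in every library, but Tpsab1 and Tpsb2, which were not tested, had 0 fragments in WT libraries 1 and 2.

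The 3 receptors that guide neural crest cells all had lower fitted levels in CF, by amounts within the spread of libraries. Ret was at 8.32 ± 0.913 CPM in CF and 9.52 ± 2.32 in WT (log2 ratio −0.20, SE 0.19, adjusted p = 0.661). Gfra1 was at 6.08, 8.97, 11.3 and 5.34 CPM in CF and 9.43, 10.1, 10.3 and 8.87 in WT. CF libraries 0 and 3 were again the low ones, as they were for Rbfox3. Ednrb was at 51.0, 59.5, 61.5 and 51.9 CPM in CF and 63.5, 65.1, 68.4 and 49.6 in WT (log2 ratio −0.14, SE 0.12, adjusted p = 0.621). Per length it was at 16.2 FPKM, against 2.61 for Ret and 1.64 for Gfra1. Which cells hold the Ednrb RNA was not tested. Each of the 3 kept the lower level in CF in all alternatives.

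The glial genes differed in direction, with 2 of 5 lower in CF and 2 to 3 over the alternatives. S100b, the calcium-binding protein of glia (chromosome 20, 13130618 to 13142856), was at 3.91, 4.18, 4.31 and 3.99 CPM in CF and 7.24, 6.17, 5.82 and 4.64 in WT. The groups did not overlap, as for 3.91% of all loci in this direction, and WT library 3 came closest to CF. Its log2 ratio was −0.54 (SE 0.17, 95% interval −0.93 to −0.16), 1.46-fold lower in CF, with an adjusted p of 0.202 and an unadjusted p under 0.05 in all 16 alternatives. Gfap, an intermediate filament of glia, was at 4.53, 1.47, 1.81 and 3.29 CPM in CF and 2.01, 1.46, 1.96 and 1.16 in WT. The libraries held 17 to 94 fragments of it. CF libraries 0 and 3 were above every WT library, while CF libraries 1 and 2 lay inside the WT range. Its log2 ratio was 0.75 (SE 0.37, 95% interval −0.06 to 1.56, adjusted p = 0.365). Cdh19, a cadherin of the glial lineage, had its high CF values in the same libraries, with 3.28, 1.02, 2.13 and 3.79 CPM in CF against 2.01, 3.81, 1.82 and 1.502 CPM in WT. Sox10 did not show this pattern, at 5.55, 3.50, 3.99 and 3.54 CPM in CF and 5.97, 4.72, 4.70 and 3.55 in WT.

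Of the 3 genes of interstitial cells of Cajal, Etv1 had the largest difference, with a lower mean in CF, and Ano1 had nearly equal means, with 2 to 3 of the 3 lower over the alternatives. Etv1, the transcription factor that these cells need downstream of KIT (chromosome 6, 58467254 to 58558631), was at 12.7, 11, 13.6 and 11.6 CPM in CF and 20.6, 19.9, 17.5 and 10.4 in WT. WT libraries 0, 1 and 2 were above every CF library, and WT library 3 was below all of them. Its log2 ratio was −0.49 (SE 0.20, 95% interval −0.92 to −0.05), with an adjusted p of 0.287 and an unadjusted p under 0.05 in 7 of 16 alternatives. Without WT library 3 it was −0.66. Kit was at 33.6, 25.2, 26.4 and 25.2 CPM in CF and 30.4, 33.6, 32.3 and 29.7 in WT, so that 3 CF libraries were below every WT library and CF library 0 was not (log2 ratio −0.19, SE 0.12, adjusted p = 0.470). Mast cells express Kit as well, and their values are given above with Slc18a2. Ano1 was at 22.0 ± 1.05 CPM in CF and 22.2 ± 3.15 in WT, with an interval of −0.28 to 0.25.

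Across the libraries, library 3 of each group was often the lowest for the neuronal genes. Of the 19 tested neuron members, CF library 3 was the lowest CF library for 13 and WT library 3 the lowest WT library for 13, against 21.3% and 31.6% of all tested loci. Of the 11 other tested members, these libraries were the lowest of their groups for 2 and 10. Among the 19 neuron members, CF library 0 was the highest CF library for 9 and WT library 0 the highest WT library for 10. Over all tested loci these shares were 33.7% and 29.3%. Summed over 20 neuron genes the level was 156, 138, 141 and 116 CPM in CF libraries 0 to 3 and 176, 163, 149 and 126 CPM in WT, with overlapping groups. The range within each group was wider than the difference between the group means.

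**Figure D4:**
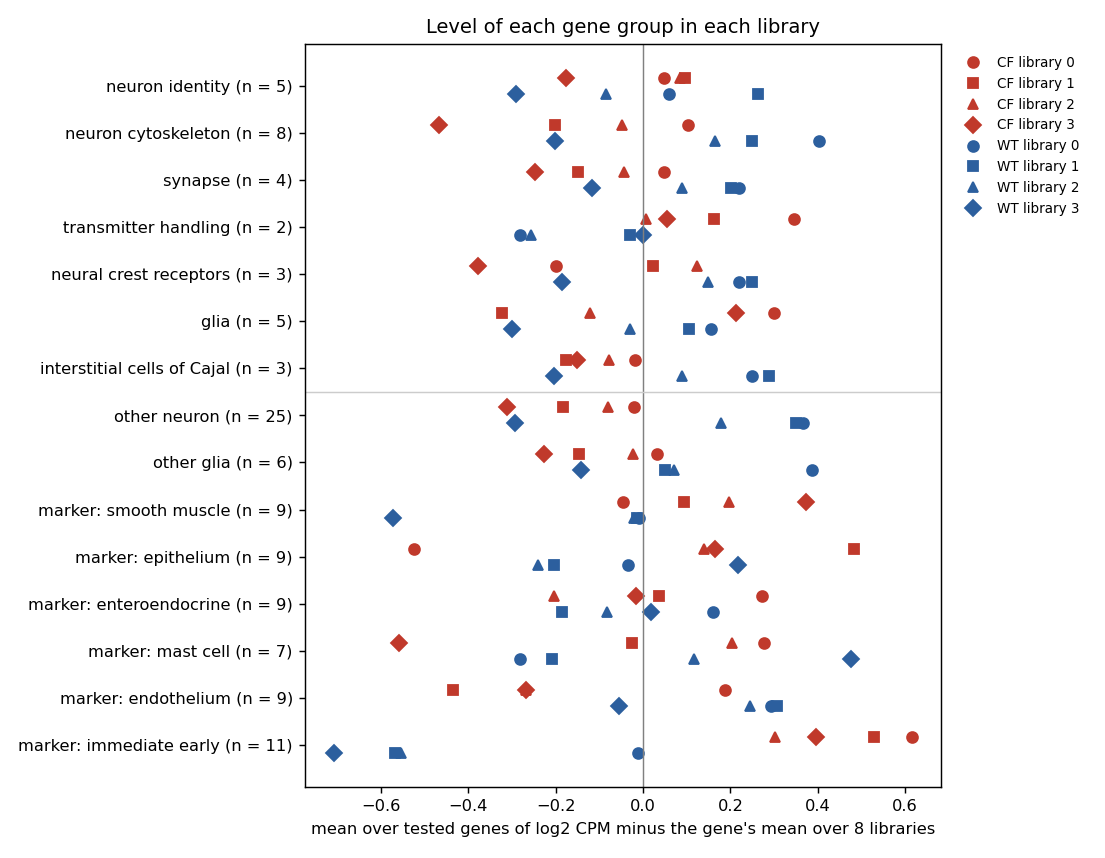
Mean over the tested genes of a group of log2 CPM after subtraction of each gene's mean over the 8 libraries, for the 7 role groups of members (above the line) and for other gene lists (below it); red is CF, blue is WT and the shape gives the library number. WT library 3 and CF library 3 (diamonds) are the lowest of their groups in neuron identity, neuron cytoskeleton and synapse, and in smooth muscle they lie at opposite ends, at −0.57 and 0.37.

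Smooth muscle surrounds the myenteric plexus, and its genes were mostly higher in CF. Of 12 smooth muscle genes 9 were matched and tested, 8 with higher levels in CF, and 0 passed the test. Over all loci 50.8% were lower in CF. The 2 genes Des and Cnn1 were higher at an unadjusted p under 0.05, against 7.94% of all loci. The 9 genes summed to 5999, 6327, 6523 and 7834 CPM in CF libraries 0 to 3 and 5808, 5917, 5833 and 4020 CPM in WT, without overlap. WT library 3 was thus the lowest WT library in both muscle and neuron genes, while CF library 3 was the highest CF library in muscle and the lowest in neuron genes. The separation rested on Des and Cnn1: the other 7 genes summed to 3892, 4483, 4819 and 5023 CPM in CF and 4804, 4652, 4640 and 3075 in WT, with overlap. Of the 2 most abundant per length, Acta2 was at 879 CPM in CF and 808 in WT, and Des at 1507 and 770 CPM. Per 1000 CPM of smooth muscle there were 26.1, 21.7, 21.6 and 14.8 CPM of neuron members in CF and 30.2, 27.6, 25.6 and 31.3 CPM in WT. CF library 0 alone reached the lowest WT value. Without Des and Cnn1 the ratio was 40.2, 30.7, 29.2 and 23.1 in CF and 36.5, 35.1, 32.2 and 40.9 in WT, so that CF library 0 lay near the top of the WT range and the other CF libraries below it. Endothelial genes were also lower in CF for 8 of 9 tested markers, against 50.8% of all loci. Of the 9, 5 were lower at an unadjusted p under 0.05, against 7.21% of all loci, and 0 passed the test. The 9 summed to 215 to 340 CPM in CF and 266 to 357 in WT, and none of them was at 0. The part of these tissues in the values of the members was not tested.

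**Figure D5:**
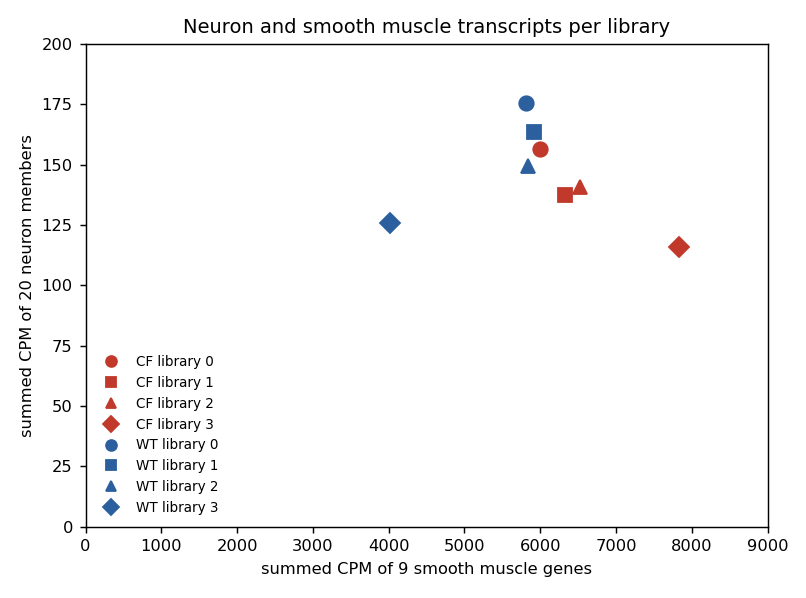
Summed CPM of the 20 neuron members against the summed CPM of 9 smooth muscle genes, 1 point per library, both axes from 0. WT library 3 is low in both, at 126 and 4020 CPM, and CF library 3 combines the lowest neuron sum, 116 CPM, with the highest muscle sum, 7834 CPM.

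Other genes of enteric neurons, neural crest signalling, glia and Cajal cells, from a list of 68, mostly had lower fitted levels in CF. This list, too, was made with earlier results of these data known. Of the 60 that were matched 48 were tested. Fitted levels were lower for 41 of them and higher for 7, while 50.8% of all loci were lower. The median log2 ratio was −0.24, and 0 passed the test. At an unadjusted p under 0.05 there were 10 lower and 2 higher, against 7.21% and 7.94% of all loci. Among neuron genes 23 of 25 were lower, 7 of them with an unadjusted p under 0.05; DESeq2 called 2 of them and the edgeR fit without a filter 1. The number at that p was 13 without WT library 3, 3 without CF library 3 or WT library 1, 4 without WT library 0, 5 to 7 without any other single library, and 2 on FPKM. Vamp2, the vesicle SNARE and the most abundant of them per length, was at 102 CPM in CF and 100.2 in WT. Thy1, a surface protein of neurons that other cells also carry, was at 30.7 CPM against 46.6 CPM without overlap, a log2 ratio of −0.60 (SE 0.15, adjusted p = 0.111). Such a separation, lower in CF, was shown by 3.91% of all loci. Of 6 tested glial genes 5 were lower, among them L1cam, which the neuron list also holds and which is counted once among the 48. The 2 most abundant per length, Cnp and Mbp, had log2 ratios of −0.09 and 0.09.

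Of 13 tested genes of neural crest signalling, which include ligands of the receptors above, 11 had lower and 2 higher levels in CF. Over all loci 50.8% were lower. At an unadjusted p under 0.05 there were 2 lower and 1 higher, against 7.21% and 7.94% of all loci, and 0 passed the test. Gdnf, the ligand of RET and GFRA1, was at 5.53 CPM in CF and 6.002 in WT. Edn3, the ligand of EDNRB, was at 11.2 CPM against 7.504 CPM (log2 ratio 0.57, SE 0.41, adjusted p = 0.539). Ece1, which activates endothelins and was the most abundant gene of this list per length, was at 177 CPM against 193 CPM. Bmp4, the next most abundant, was at 43.3 CPM against 52.5 CPM. Nrg1, the ligand of ERBB3, was named after its values were seen: it was at 28.6 CPM in CF and 14.96 in WT without overlap, a log2 ratio of 0.93 (SE 0.26, adjusted p = 0.163). Such a separation, higher in CF, was shown by 4.86% of all loci. Kitlg, the ligand of KIT, was the most abundant per length in the further list made for Cajal cells. It was at 60.4 CPM against 74.2 CPM (log2 ratio −0.30, SE 0.11, adjusted p = 0.261). Which cells hold the RNA of that list was not tested. P2ry1, the next in that list, was at 36.8 CPM against 36.5 CPM. Of the 5 tested genes of that list 3 were lower, and Cacna1h, a T-type calcium channel gene named after its values were seen, was higher at 30.9 CPM against 21.5 CPM (log2 ratio 0.52, SE 0.20, adjusted p = 0.261).

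Immediate early genes and genes of fat and mesothelium were read in the same libraries. All 11 tested immediate early genes had higher levels in CF, 1 of them (Junb, at 88.3 CPM in CF and 40.1 in WT) past the test, with sums of 357 to 455 CPM in CF and 200 to 305 in WT. All 7 tested genes of fat and mesothelium, cells that lie on the outside of the gut and of which fat cells are known to express S100b, had lower levels in CF, with 0 past the test and 1 at an unadjusted p under 0.05. Over all loci 50.8% had lower levels in CF, and 7.21% were lower at that p. The sums of the fat and mesothelium genes were 68.5 to 118 CPM in CF and 84.6 to 120 CPM in WT. Most of each sum came from Cidec, with means of 36.9 CPM in CF and 38.35 in WT, and Fabp4, with 39.15 and 39.4 CPM. Which cells hold the RNA of these genes was not tested. None was at 0 in every library, but Lep, which is in the sums and was not tested, had 0 fragments in CF libraries 2 and 3. The part of either list in the values of the members was not tested.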

How the data were processed

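The build was Rnor_6.0 and the tools were STAR 2.3.1z, Cuffdiff, StringTie, cutadapt and bcl2fastq, per the submitters' processing notes; the sources used here give no order, settings or annotation. The values tested are estimated counts, raw fragments per locus and library, deposited by the authors before scaling, per the file headers; 5.99% were not whole and all were rounded. FPKM values were made by the authors with Cuffdiff, per the file headers, and served for levels between genes and for alternatives. Another 2 scaled columns stayed unused. Each library's group is given by the table, but which sample title it carries is not, and no result uses that. Spans are 1-based.

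Members were read from a fit over all loci: filterByExpr (minimum count 10, minimum total 15), TMM, edgeR's robust quasi-likelihood test, Benjamini-Hochberg adjustment, threshold 0.05. Standard errors divide the log2 fold change by the root of the F statistic, and 95% intervals use the test's degrees of freedom. CPM uses TMM-scaled library sizes. The procedure was tested on simulated data. Members and lists were chosen with earlier results of these data known. Values in every library were given by rule for members with an unadjusted p under 0.05 and for the member highest in FPKM of each role group; others were chosen after their values were seen. Alternatives changed scaling, filter, test, unit, pseudocount, libraries and block. Versions were edgeR 4.0.16, DESeq2 1.42.0 and limma 3.58.1 in R 4.3.3, and matplotlib 3.10.9 and pandas 2.3.3 in Python 3.11.15.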

Additional observations from a re-analysis of the deposited data

Results flagged for a closer look

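In 4 of 80 groups of 4 libraries looked at, 1 library stood far from the others, which chance gives in about 1 of 20. Uchl1 was at 9.49 CPM in WT library 3, against 15.4 to 16.5 CPM in the other WT libraries. Syn1 was at 1.65 CPM in CF library 3, against 2.70 to 2.88 CPM in the other CF libraries. Kit was at 33.6 CPM in CF library 0, against 25.2 to 26.4 CPM in the other CF libraries. The mean level of the 5 neuron identity genes was −0.18 in CF library 3, against 0.05 to 0.09 in the other CF libraries.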

How the results depend on the processing

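No member was called in 15 of the 16 alternatives; DESeq2 called 1, Nefm. Loci called numbered 28, against 553 with no low-count filter, 566 with DESeq2, 17 by limma-voom, 12 on log2(FPKM + 1), 15 on log2(FPKM + 0.1), 0 on log2(FPKM + 1) without a filter, and 5 to 136 with 1 library left out. Members lower in CF at an unadjusted p under 0.05 numbered 4, against 2 on either FPKM scale, 1 on FPKM without a filter, and 2 to 7 with 1 library left out (7 without CF library 0, 6 without WT library 3, and 2 without CF library 1 or 3 or WT library 0 or 1). Members higher at that p numbered 0, against 1 with no filter and 0 to 1 with 1 library left out, Gfap in each case. Nefm and S100b were in this count under each library left out.

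The replicate block (library number 0 to 3) gave 11 loci, 0 members called and 6 members lower at an unadjusted p under 0.05. Whether the numbers pair the libraries is not given by the labels. Same-numbered libraries had deviations correlated at −0.106 to 0.163, and 4 of 8 correlated best with their own number, which does not settle it.

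The members that changed sign numbered 8, all with values near 0 beside their error. With 1 library left out the log2 fold changes were −0.22 to 0.19 for Rbfox3, −0.090 to 0.21 for Hand2, −0.15 to 0.071 for Uchl1, −0.19 to 0.028 for Tubb3, −0.075 to 0.045 for Snap25, −0.10 to 0.11 for Syp, −0.091 to 0.52 for Cdh19 and −0.071 to 0.053 for Ano1. Uchl1 was at 0.0036 with DESeq2's size factors, 0.038 without a filter, 0.012 with DESeq2, 0.0065 with limma-voom and 0.020 with the replicate block. Without a filter Snap25 was at 0.016, Syp at 0.033 and Ano1 at 0.027, and with DESeq2 Syp was at 0.0091 and Ano1 at 0.002. Rbfox3 was at −0.11 with limma-voom, −0.093 on log2(FPKM + 1) with and without a filter, −0.20 on log2(FPKM + 0.1) and −0.045 with the block. Cdh19 was at −0.0097 on log2(FPKM + 1) with and without a filter and −0.034 on log2(FPKM + 0.1). The other 22 members kept their direction in all 16 alternatives. The cause of these differences was not tested. The sum over several loci of a symbol was not run, since each matched member has 1 locus. Counts under 30 fragments in every library limit Elavl3, Dbh and Th.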
